A study of Homo sapiens with 12 samples.

Results

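The sensors of cytosolic DNA and RNA and the adaptors, kinases and transcription factors directly behind them were followed in HCC1806, an established cell line of triple-negative breast cancer. The 10 genes were chosen by symbol: CGAS, STING1 and TREX1 of the DNA branch, RIGI, IFIH1 and MAVS of the RNA branch, the kinases TBK1 and IKBKE, and the transcription factors IRF3 and IRF7. The deposited table of 17013 genes held a row for 9 of them, and TREX1 was not analysed here. All cells carried a transfected siRNA. siNT cells received a non-targeting control siRNA and siMLK4 cells a pool of 4 siRNAs against MLK4, a mixed-lineage kinase whose gene symbol is MAP3K21. Beginning 24 h after transfection, cells of each kind were given either 1 μM doxorubicin for 24 h or the vehicle, labeled DMSO by the submitters and described as untreated in the study's methods. The titles mark the vehicle libraries t0 and the doxorubicin libraries t24, while the study describes both as kept for the same 24 h before RNA isolation. Each of the 4 groups had 3 libraries, and the 12 poly(A)-selected libraries held between 16759025 and 19302248 reads in the listed genes. The cells were transfected in triplicate, and nothing states that the triplicates came from separate cultures, so the p-values measure the spread between these libraries only.

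Cells detect misplaced nucleic acids through a small set of proteins. cGAS, the product of CGAS, binds double-stranded DNA in the cytosol and makes the second messenger cGAMP, which activates STING1 on the endoplasmic reticulum. RIG-I, the product of RIGI, and MDA5, the product of IFIH1, bind double-stranded RNA and signal through MAVS on the mitochondrial surface. Both branches meet at the kinases TBK1 and IKBKE, which phosphorylate IRF3 and IRF7, and these then drive type I interferon and many interferon-stimulated genes. Doxorubicin intercalates into DNA and blocks topoisomerase II, and DNA damage is a known source of cytosolic DNA. The measurements below are of mRNA and carry no information on phosphorylation or on cGAMP.

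The knock-down rested on the following 4 siRNAs, shown as sense strands because they define the treated groups. Capitals mark bases 12 to 18, which pair with bases 2 to 8 of the guide strand, the seed that also sets off-target pairing.
Sense strand of siRNA 1 of the pool: ggaaagaugcuCAGAGAGauu
Sense strand of siRNA 2 of the pool: aggagaagcccAAGGUAAauu
Sense strand of siRNA 3 of the pool: agaagaaacgaGAGGGAAuuu
Sense strand of siRNA 4 of the pool: agaacagauugCAAAGAAauu
The first 19 bases of each siRNA matched transcripts of MAP3K21 in the coding sequence and of no other gene of the table. The DNA form of at least 1 capital word stood in the annotated 3′ untranslated region of 58.2% of 13587 genes of the table. Among the 9 sensing genes, it stood in that of CGAS, RIGI, IFIH1, MAVS, TBK1 and IRF3, and in none of STING1, IKBKE and IRF7. A match of letters is a description and not a site of action.

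MAP3K21 (ENSG00000143674) was low in every library of siMLK4 cells. With vehicle it was at 553, 670 and 674 normalized reads in siNT cells and at 103, 94.7 and 88.7 in siMLK4 cells, that is, reads divided by the size factor of the library. With doxorubicin it was at 758, 856 and 772 in siNT cells and at 113, 138 and 94.4 in siMLK4 cells. What remained was 15.1% of the control mean with vehicle and 14.5% with doxorubicin, and no library of one kind overlapped with the other. The fitted differences were −2.24 on the log2 scale (SE 0.12, limma adjusted p = 9.7e-08) with vehicle and −2.37 (SE 0.12, adjusted p = 1.1e-07) with doxorubicin.

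The line was epithelial by its transcripts. All 10 basal and epithelial markers were in the table, with KRT8 the most abundant at a mean of 23538 normalized reads, and their summed level was 116632 in siNT cells with vehicle, 80199 in siNT cells with doxorubicin, 105188 in siMLK4 cells with vehicle and 54211 in siMLK4 cells with doxorubicin. Of the hormone receptors, PGR was at 0 in every vehicle library and ESR1 at a mean of 92.7 normalized reads in siNT cells with vehicle. Of the immune cell markers, PTPRC and CD14 were in the table, and CD3E, MS4A1, CD68, LYZ, NKG7 and CLEC4C were not analysed here. Of 6 fibroblast markers COL1A1, LUM and PDGFRB were in the table, and of 4 endothelial markers only VWF. In bulk RNA, fewer cells that express a gene and less of its RNA per cell cannot be told apart.

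Promoter sequence was available for 5 of the 9 sensing genes (IKBKE, IFIH1, RIGI, TBK1 and MAVS), from RefSeq on GRCh38.p14, each running from 250 bases before the annotated start to 50 after it. RIGI is shown because it passed both thresholds with doxorubicin in siNT and in siMLK4 cells, and IFIH1, chosen after its values were seen, because it differed with the knock-down under both treatments. Capitals mark in RIGI a kappaB core, the letters GGGA, any 4 bases and CC, and in IFIH1 the core of the interferon-stimulated response element, GAAA, any 2 bases and GAAA, both searched on both strands.
RIGI promoter, chr9:32526147-32526446, minus strand: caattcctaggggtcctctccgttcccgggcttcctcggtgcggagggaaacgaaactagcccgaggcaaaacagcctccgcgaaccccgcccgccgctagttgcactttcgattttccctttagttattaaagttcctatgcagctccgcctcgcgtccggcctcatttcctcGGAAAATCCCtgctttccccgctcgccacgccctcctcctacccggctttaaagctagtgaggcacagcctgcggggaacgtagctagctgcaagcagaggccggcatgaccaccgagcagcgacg
IFIH1 promoter, chr2:162318635-162318934, minus strand: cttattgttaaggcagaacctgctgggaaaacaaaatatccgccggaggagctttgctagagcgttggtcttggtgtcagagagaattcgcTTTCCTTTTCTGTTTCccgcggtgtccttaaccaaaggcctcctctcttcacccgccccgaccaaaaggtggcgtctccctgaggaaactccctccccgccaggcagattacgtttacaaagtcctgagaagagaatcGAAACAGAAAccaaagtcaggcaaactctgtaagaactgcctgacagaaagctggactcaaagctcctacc
The capitals of RIGI, GGAAAATCCC, were a kappaB core on the other strand and began 76 bases before the start. RIGI held no response element core, while IFIH1 held 3, of which the pair beginning 159 and 153 bases before the start overlapped and the third began 21 bases before it. MAVS, TBK1 and IKBKE held none. The kappaB core was not particular to RIGI, since IFIH1 held 2, not capitalized, that began 89 and 76 bases before the start, and IKBKE held 1 that began 236 bases before it. Of 35116 promoters of this length, 3.57% held the response element core and 25.6% the kappaB core. These are matches of letters only, and nothing in the data shows binding there.

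IRF3 and CGAS had the highest levels of the 9 genes per length of merged exons, and IRF7 the lowest. Merged exons join all annotated transcripts of a gene and can be longer than the transcripts present, so the order depends on that length. They held 14716 bases for TBK1 and 10345 for RIGI, beside 4174 for CGAS. In normalized reads TBK1 was above CGAS in siNT cells with vehicle, at means of 1499 and 895. In siNT cells with vehicle, the mean level in RPKM, that is, reads per kilobase of exon scaled to the library total, was 18.1 ± 4.62 (SD, n = 3) for IRF3, 10.6 ± 1.28 for CGAS, 8.39 ± 0.72 for MAVS and 5.02 ± 0.684 for TBK1. It was 4.37 ± 0.649 for IFIH1, 4.13 ± 0.452 for IKBKE, 3.42 ± 0.159 for STING1, 3.02 ± 0.24 for RIGI and 0.645 ± 0.228 for IRF7. Neighbors in this order had overlapping ranges at TBK1 and IFIH1, at IFIH1 and IKBKE, and at STING1 and RIGI, and the other neighbors did not overlap. On the same scale, RIGI was next to last in siNT cells with vehicle, was 4th with doxorubicin at 11.1 ± 0.304, and was 3rd in siMLK4 cells with doxorubicin at 13.7 ± 1.25, above MAVS at 11.4 ± 0.689. IRF3 was first in all 4 groups, at 48.3 ± 10.1 in siNT and 48.1 ± 4.81 in siMLK4 cells with doxorubicin. In siMLK4 cells with vehicle its range overlapped with that of CGAS.

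**Figure D1:**
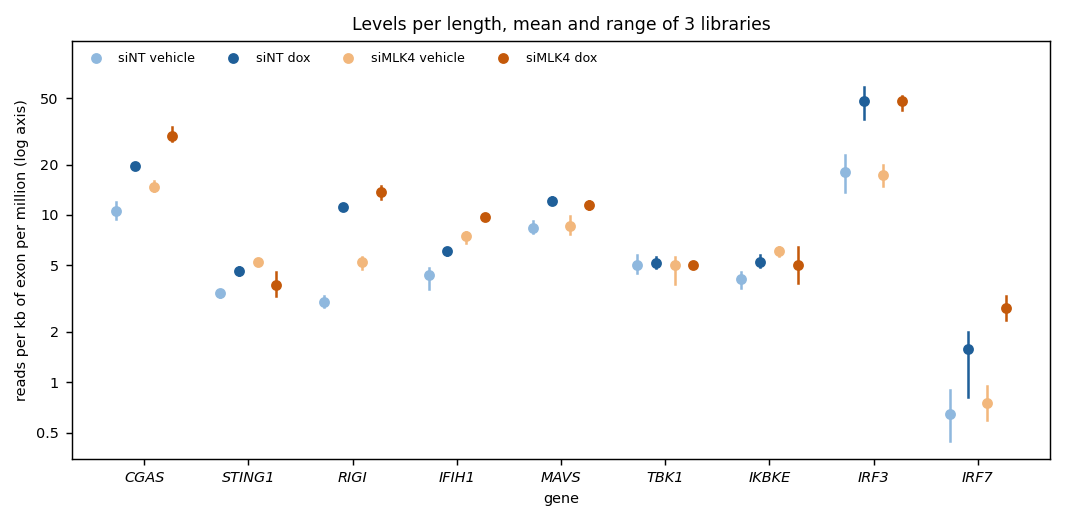
Level of each gene in RPKM (log axis) in the 4 groups; points are means and bars run from the lowest to the highest of 3 libraries. IRF3 stands at the top and IRF7 at the bottom in every group, and RIGI moves from 3.02 in siNT cells with vehicle to 13.7 in siMLK4 cells with doxorubicin.

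Between groups, a gene was called when its limma adjusted p was below 0.01 and its log2 fold change beyond 0.75 in either direction, thresholds that the study used. "Rose" and "fell" are used of genes with an adjusted p below 0.05. Fold changes were fitted on the deposited variance-stabilized values, a log2-like scale that understates the change of genes with few reads, and adjusted p-values were taken over all 17013 genes. With doxorubicin, 2 of the 9 sensing genes were called in siNT cells, RIGI and IRF3, both higher, against 22.7% of all genes. In siMLK4 cells 4 were called, RIGI, IRF3, CGAS and IRF7, all higher, against 23.2% of all genes. At an adjusted p below 0.05, 5 rose and none fell in siNT cells, where 57.3% of all genes passed, 29.6% higher and 27.7% lower. In siMLK4 cells 4 rose and 2 fell, where 57.9% of all genes passed, 30.2% higher and 27.7% lower. The libraries of the groups did not overlap for 6 of the genes in siNT cells and 8 in siMLK4 cells, against 62.4% and 63.8% of all genes. Their median difference on the log2 scale was 0.29 in siNT and 0.22 in siMLK4 cells, beside 0.00 and 0.02 over all genes. The shares called in siNT cells were near those of all genes, and nothing about the 9 genes as a set is read from these counts.

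**Figure D2:**
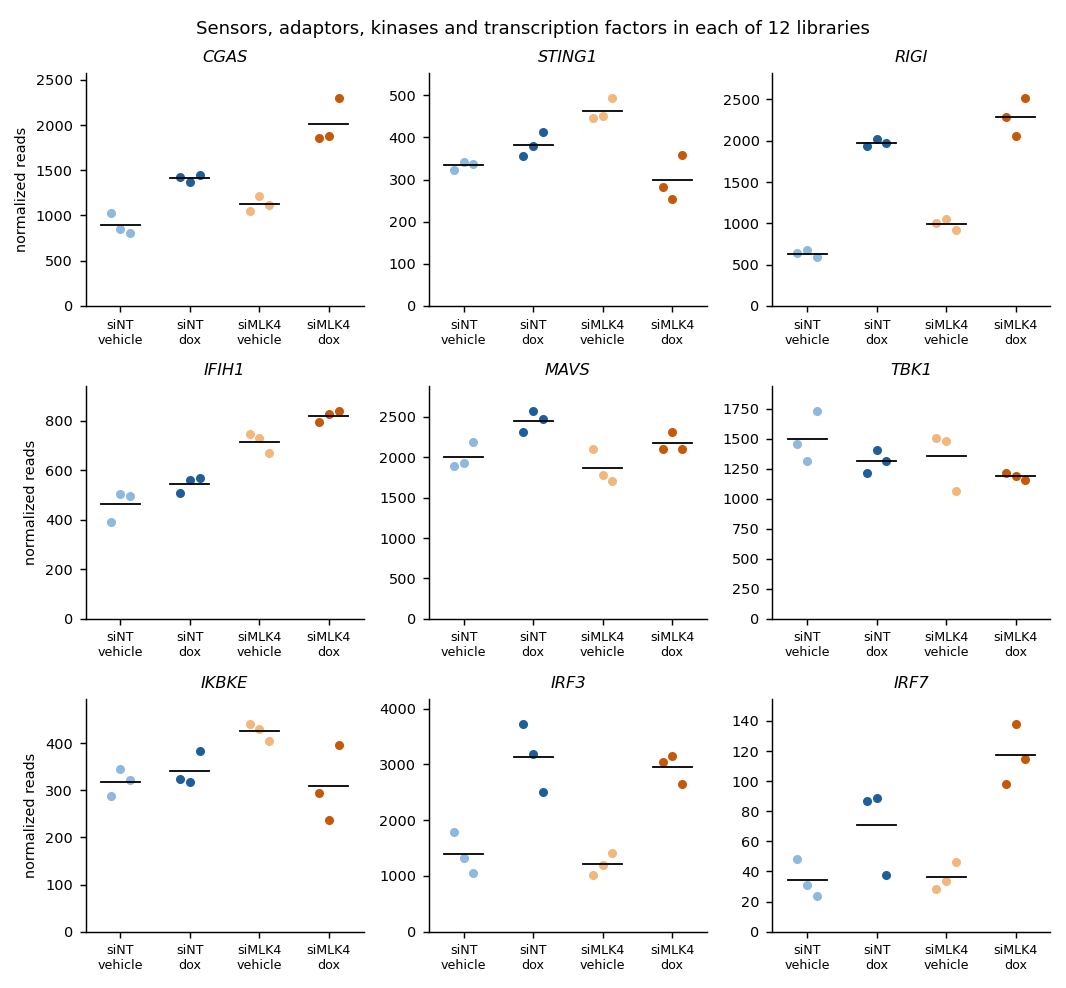
Normalized reads of the 9 sensing genes in each library, 3 per group; points are libraries, lines are group means, and each axis starts at 0. The doxorubicin libraries of RIGI and IRF3 all lie above the vehicle libraries, and for STING1 the siNT doxorubicin libraries lie above the siNT vehicle libraries while the siMLK4 doxorubicin libraries lie below the siMLK4 vehicle libraries.

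Of the sensors among the 9 genes, RIGI showed the largest difference with doxorubicin. RIGI (ENSG00000107201, chr9:32455302-32526208 on GRCh38) was at 636, 678 and 589 normalized reads in siNT cells with vehicle and at 1933, 2022 and 1970 with doxorubicin. With siMLK4 it was at 1000, 1054 and 921 with vehicle and at 2285, 2057 and 2515 with doxorubicin. The doxorubicin libraries lay above all vehicle libraries, and the siMLK4 vehicle libraries lay above all siNT vehicle libraries. RIGI rose 3.11-fold in siNT cells (log2 fold change 1.56, SE 0.10, adjusted p = 7e-08) and 2.30-fold in siMLK4 cells (1.16, SE 0.10, adjusted p = 7.6e-07). With vehicle it was 1.56-fold higher in siMLK4 than in siNT cells (0.60, SE 0.10, adjusted p = 0.00075). With doxorubicin the difference was 0.20 (95% interval −0.02 to 0.42, adjusted p = 0.17). The doxorubicin response differed by −0.40 between siMLK4 and siNT cells (95% interval −0.71 to −0.09), which did not pass after adjustment (adjusted p = 0.20). With the replicate number as a block in a fit of the doxorubicin groups alone, the siMLK4 difference with doxorubicin was the same 0.20 and its adjusted p 0.025, within a range of 0.025 to 0.42 over all alternatives.

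IFIH1, which encodes the other RNA sensor MDA5, differed with the knock-down and not detectably with the drug. IFIH1 (ENSG00000115267, chr2:162267074-162318684) was at 391, 502 and 496 normalized reads in siNT cells with vehicle and at 508, 561 and 568 with doxorubicin. Cells with siMLK4 were at 747, 731 and 669 with vehicle and at 793, 829 and 839 with doxorubicin. Every siMLK4 library lay above every siNT library. IFIH1 rose with the knock-down by 0.58 (SE 0.11, adjusted p = 0.0015) with vehicle and by 0.55 (SE 0.11, adjusted p = 0.0023) with doxorubicin, both short of the fold threshold. With doxorubicin the differences were 0.22 (95% interval −0.01 to 0.45) in siNT and 0.18 (−0.05 to 0.42) in siMLK4 cells, with adjusted p-values of 0.097 and 0.16. When library totals replaced the size factors, which moved the median of all genes to 0.18 and 0.16, these became 0.44 and 0.36 with adjusted p-values of 0.0042 and 0.013. Leaving out 1 library gave 0.11 to 0.28 in siNT and 0.14 to 0.21 in siMLK4 cells.

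MAVS, the adaptor that both RNA sensors share, moved little. MAVS (ENSG00000088888, chr20:3846799-3876123) was at 1891, 1925 and 2195 normalized reads in siNT cells with vehicle and at 2309, 2573 and 2472 with doxorubicin. In siMLK4 cells it was at 2102, 1776 and 1707 with vehicle and at 2108, 2316 and 2105 with doxorubicin. Within each kind of cells, the groups did not overlap between treatments. MAVS rose with doxorubicin in siNT cells by 0.29 (SE 0.11, adjusted p = 0.034), and the difference in siMLK4 cells was 0.22 (95% interval −0.01 to 0.45, adjusted p = 0.087). The adjusted p in siNT cells was above 0.05 (0.075 to 0.11) once replicate 1 or 2 of the siNT vehicle group, or replicate 2 or 3 of the siNT doxorubicin group, was left out, and in siMLK4 cells it was 0.031 without siMLK4 vehicle replicate 1. It was also 0.055 in siNT cells with scaling by the trimmed mean of M values and 0.054 with only the groups compared, and in siMLK4 cells library totals gave 0.41 with an adjusted p of 0.0062. Between siMLK4 and siNT cells the differences were −0.11 (−0.33 to 0.12) with vehicle and −0.17 (−0.40 to 0.06) with doxorubicin.

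In the DNA branch, CGAS rose with doxorubicin in both kinds of cells. CGAS (ENSG00000164430, chr6:73413515-73452297) was at 1030, 853 and 802 normalized reads in siNT cells with vehicle and at 1424, 1370 and 1445 with doxorubicin. Cells with siMLK4 were at 1052, 1211 and 1121 with vehicle and at 1861, 1874 and 2297 with doxorubicin. The groups were ordered without overlap, from siNT vehicle to siMLK4 vehicle, siNT doxorubicin and siMLK4 doxorubicin. CGAS rose 1.58-fold in siNT cells (0.64, SE 0.12, adjusted p = 0.00035) and 1.78-fold in siMLK4 cells (0.80, SE 0.12, adjusted p = 5.1e-05). The call in siMLK4 cells was lost without siMLK4 doxorubicin replicate 3, the highest library (0.70, adjusted p = 0.00028). With library totals as the scaling, the value in siNT cells passed the fold threshold at 0.86. CGAS was higher in siMLK4 than in siNT cells by 0.49 with doxorubicin (SE 0.12, adjusted p = 0.0074), and by 0.32 with vehicle, which missed the threshold (95% interval 0.07 to 0.57, adjusted p = 0.055). That p was 0.020 without siNT vehicle replicate 1 and 0.041 without siMLK4 doxorubicin replicate 3, and with library totals the value was 0.46 with an adjusted p of 0.0086.

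STING1, the adaptor that cGAMP activates, fell with doxorubicin in siMLK4 cells. STING1 (ENSG00000184584, chr5:139475533-139482935) was at 322, 342 and 337 normalized reads in siNT cells with vehicle and at 356, 380 and 413 with doxorubicin. With siMLK4 it was at 447, 450 and 493 with vehicle and at 283, 253 and 358 with doxorubicin. All siMLK4 vehicle libraries lay above every other library. The fall in siMLK4 cells was to 64.3% of the vehicle mean (−0.57, SE 0.12, adjusted p = 0.00086), and its difference in siNT cells was 0.17 (95% interval −0.08 to 0.42, adjusted p = 0.22), or 0.38 with an adjusted p of 0.011 with library totals. The difference between the responses was −0.74 (SE 0.17, 95% interval −1.10 to −0.39, adjusted p = 0.044). It was the only one of the 9 genes whose responses differed at an adjusted p below 0.05, against 1.2% of all genes and 0.623% in that direction. That adjusted p ran from 0.013 to 0.15 over 20 alternatives and was above 0.05 in 12 of them, 11 of which left out 1 library, while the value stayed between −0.86 and −0.65.

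With the knock-down, STING1 was higher with vehicle, and its value with doxorubicin passed or missed the threshold with the fit. With vehicle STING1 was 1.39-fold higher in siMLK4 than in siNT cells (0.42, SE 0.12, adjusted p = 0.017). Without siMLK4 vehicle replicate 3 this value was 0.38 with an adjusted p of 0.050. With doxorubicin it was −0.32 (95% interval −0.57 to −0.07, adjusted p = 0.058), and −0.44 with an adjusted p of 0.012 without siMLK4 doxorubicin replicate 3. With the replicate number as a block, in a fit of the doxorubicin groups alone, its adjusted p was 0.0030, and with the block in all groups 0.046, within a range of 0.0030 to 0.23 over all alternatives.

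**Figure D3:**
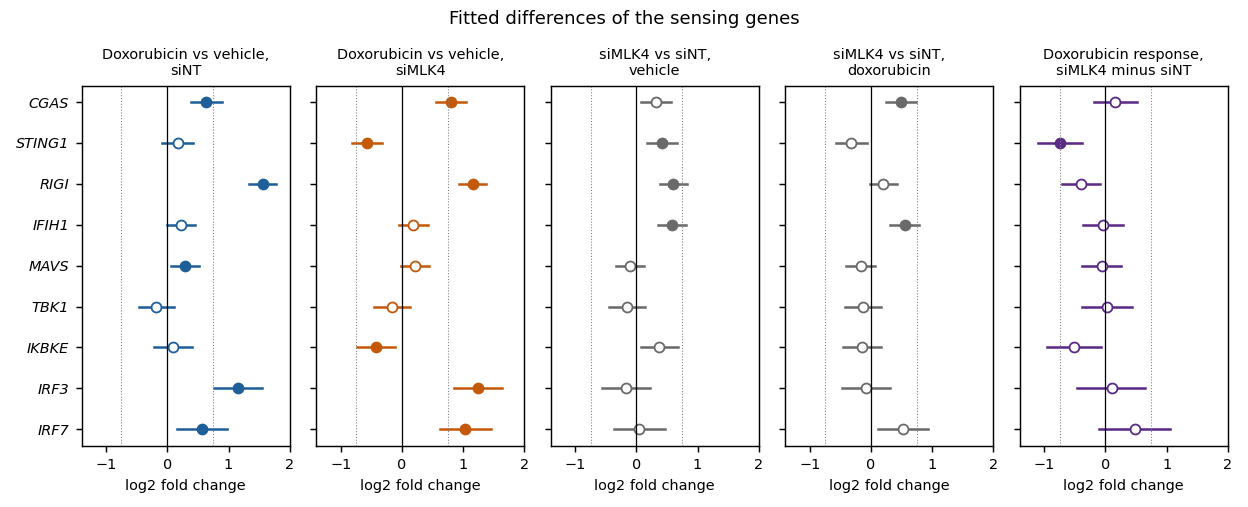
Log2 fold changes of the 9 sensing genes with 95% intervals, in the 4 comparisons and for the difference between the doxorubicin responses; filled points have an adjusted p below 0.05 and dotted lines mark 0.75 in either direction. RIGI and IRF3 lie beyond 0.75 with doxorubicin in both kinds of cells, and STING1 lies at −0.74 in the rightmost panel.

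The kinases showed smaller differences. TBK1 (ENSG00000183735, chr12:64452090-64502114), the main kinase of both branches, ranged from 1317 to 1729 normalized reads in siNT cells with vehicle, 1210 to 1405 with doxorubicin, 1066 to 1505 in siMLK4 cells with vehicle and 1159 to 1217 with doxorubicin. These ranges overlapped in every comparison. The doxorubicin differences were −0.18 (95% interval −0.47 to 0.11) in siNT and −0.16 (−0.45 to 0.13) in siMLK4 cells, and both turned positive, at 0.05 and 0.02, when library totals replaced the size factors. Without siMLK4 vehicle replicate 3, the lowest library of its group, the value in siMLK4 cells was −0.32 with an adjusted p of 0.036. An opposite-strand transcript, ENSG00000277895, shares 812 bases with TBK1, and the reads were counted by strand.

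IKBKE, which encodes the related kinase IKKε, was highest in siMLK4 cells with vehicle. IKBKE (ENSG00000263528, chr1:206470476-206496889) was at 287, 346 and 321 normalized reads in siNT cells with vehicle and at 324, 318 and 383 with doxorubicin. In siMLK4 cells it was at 441, 430 and 404 with vehicle and at 294, 238 and 396 with doxorubicin. The siMLK4 vehicle libraries lay above all others. IKBKE fell with doxorubicin in siMLK4 cells (−0.42, SE 0.14, adjusted p = 0.020), and in siNT cells the difference was 0.09 (95% interval −0.22 to 0.40). The adjusted p of the fall was above 0.05 without siMLK4 vehicle replicate 1 or 2 or siMLK4 doxorubicin replicate 1 or 2 (0.054 to 0.11), and without the last of these the value was −0.28. With library totals it was −0.26 with an adjusted p of 0.13. The responses differed by −0.51 (95% interval −0.95 to −0.08), which did not pass after adjustment (adjusted p = 0.24). With vehicle, siMLK4 cells were higher than siNT cells by 0.37 (95% interval 0.07 to 0.68, adjusted p = 0.070), and that p was 0.043 and 0.030 without siMLK4 doxorubicin replicate 2 and 3 and 0.020 with library totals (0.49).

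IRF3, the transcription factor that TBK1 phosphorylates, rose with doxorubicin in both kinds of cells. IRF3 (ENSG00000126456, chr19:49659569-49665875) was at 1795, 1326 and 1060 normalized reads in siNT cells with vehicle and at 3727, 3188 and 2507 with doxorubicin. With siMLK4 it was at 1024, 1197 and 1418 with vehicle and at 3045, 3149 and 2645 with doxorubicin. The groups did not overlap between treatments and overlapped between siNT and siMLK4 cells. IRF3 rose 2.25-fold in siNT cells (1.16, SE 0.18, adjusted p = 0.00011) and 2.43-fold in siMLK4 cells (1.25, SE 0.18, adjusted p = 5.3e-05). Between siMLK4 and siNT cells, its differences were −0.17 (95% interval −0.56 to 0.22) with vehicle and −0.08 (−0.47 to 0.31) with doxorubicin, where library totals gave 0.01. The gene BCL2L12 lies on the opposite strand and shares 734 bases with IRF3. It was at 1009 normalized reads in siNT cells with vehicle and at 1052 with doxorubicin.

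IRF7, which interferon itself induces in many cells, had few reads in every library. IRF7 (ENSG00000185507, chr11:612553-615983) was at 48.1, 31.1 and 23.6 normalized reads in siNT cells with vehicle and at 86.7, 88.6 and 37.5 with doxorubicin. Cells with siMLK4 were at 28.1, 33.9 and 46.5 with vehicle and at 98.4, 138 and 115 with doxorubicin. The third siNT doxorubicin library lay within the range of the vehicle libraries, and the siMLK4 doxorubicin libraries lay above all others. IRF7 rose in siMLK4 cells from a mean of 36.1 ± 9.42 to 117 ± 20.1 (SD, n = 3) normalized reads (1.04, SE 0.19, adjusted p = 0.00037). In siNT cells it rose by 0.56 (SE 0.19, adjusted p = 0.022), and the value was 0.80 and passed both thresholds without siNT doxorubicin replicate 3. Its adjusted p was above 0.05, between 0.060 and 0.099, once replicate 2 or 3 of the siNT vehicle group, or replicate 1 or 2 of the siNT doxorubicin group, was left out. With doxorubicin, siMLK4 cells were higher than siNT cells by 0.52 (95% interval 0.11 to 0.94, adjusted p = 0.061). With the replicate number as a block, in a fit of the doxorubicin groups alone, that p was 0.00012, within a range of 0.00012 to 0.28 over all alternatives. It was also below 0.05 when replicate 1 of siNT vehicle (0.047) or replicate 1 or 2 of siNT doxorubicin (0.049 each) was left out, and with library totals (0.035), while leaving out replicate 3 of siNT doxorubicin cut the value to 0.28 with an adjusted p of 0.28. The responses differed by 0.48 (−0.10 to 1.06, adjusted p = 0.46), and by 0.24 to 0.60 when 1 library was left out.

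With the knock-down, none of the 9 genes was called under either treatment by limma, against 5.65% of all genes with vehicle and 5.58% with doxorubicin. At an unadjusted p below 0.05 there were 5 with vehicle and 4 with doxorubicin, against 37.0% and 37.1% of all genes. At an adjusted p below 0.05, 3 rose with vehicle (RIGI, IFIH1 and STING1) and none fell, where 25.8% of all genes passed, 12.7% higher and 13.0% lower. With doxorubicin 2 rose (IFIH1 and CGAS), where 24.8% of all genes passed, 12.7% higher and 12.1% lower. With the replicate block in the doxorubicin groups alone, 4 were higher and 1, STING1, lower at an adjusted p below 0.05, where 48.8% of all genes passed, 25.9% higher and 22.9% lower. With the block in all groups, 2 were higher and STING1 lower, where 24.7% of all genes passed, 12.8% higher and 11.9% lower. The libraries did not overlap for 5 of the genes with vehicle and 4 with doxorubicin, against 37.8% and 43.9% of all genes. The median of the 9 genes was 0.32 with vehicle and −0.08 with doxorubicin, beside 0.01 and 0.02 over all genes. For the difference between the doxorubicin responses, none was called by limma against 0.276% of all genes, and 3 had an unadjusted p below 0.05, against 14.5% of all genes. The knock-down and doxorubicin comparisons share libraries, so their values for a gene are not independent.

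The genes whose variance-stabilized values were most alike those of a called sensing gene over the 12 libraries were named by Pearson's r, as a description. For RIGI these were TGFB2 (0.991), CABYR (0.991) and LYPD1 (0.988). For IRF3 they were PPP1R12C (0.991), EIF4A3 (0.989) and DAGLB (0.989). For CGAS they were TEX30 (0.985), SPC25 (0.977), which encodes a kinetochore subunit, and HAAO (0.972). For IRF7, with its few reads, they were the pseudogenes EEF1A1P19 (0.965) and FRG1DP (0.955) and the noncoding CTTN-DT (0.961). The 12 libraries fall into 4 groups, and every gene that follows the treatment correlates with the others.

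The remaining genes of the pathway were read from 6 lists, of which 91 genes besides the 9 were in the table. Beside the sensors of DNA stand the enzymes and channels that handle DNA and cGAMP. Of 16 such genes, 1 was called higher and 4 lower in siNT cells, and 2 higher and 3 lower in siMLK4 cells, where 22.7% and 23.2% of all genes were called. The median was −0.32 and −0.11, beside 0.00 and 0.02 over all genes, and the latter was −0.20 without siMLK4 vehicle replicate 3. SLC19A1, a folate carrier that also imports cGAMP, fell from 546 ± 138 to 29.5 ± 9.74 (SD, n = 3) normalized reads in siNT cells (−3.01, SE 0.18, adjusted p = 3.7e-08). In siMLK4 cells it fell from 332 ± 53.4 to 70.7 ± 11.7 (−1.69, SE 0.18, adjusted p = 3e-06). ENPP1, which hydrolyzes extracellular cGAMP, was at 2.58 ± 1.71 normalized reads with vehicle and rose to 52.2 ± 7.76 in siNT cells. In siMLK4 cells with vehicle no library had more than 3 reads of it, and with doxorubicin it was at least 14.1-fold higher, counted against a floor of 3 reads per library. LRRC8A, a subunit of a volume-regulated channel that passes cGAMP, was at 1591, 1595 and 1604 normalized reads in siNT vehicle libraries and at 840, 929 and 664 in siMLK4 vehicle libraries (−0.95, SE 0.18, adjusted p = 0.0017). It rose with doxorubicin in siMLK4 cells (0.95, SE 0.18, adjusted p = 0.00048), to a mean of 1636 beside 1417 in siNT cells. IFI16, a nuclear DNA sensor, fell by 0.95 in siNT and by 0.79 in siMLK4 cells, and NONO, an RNA-binding protein that also works with cGAS, fell by 0.84 and 0.85. The call of IFI16 in siMLK4 cells was lost without siMLK4 vehicle replicate 3 (−0.72) or siMLK4 doxorubicin replicate 2 (−0.68), and all 4 of these calls of IFI16 and NONO missed the fold threshold with library totals.

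**Figure D4:**
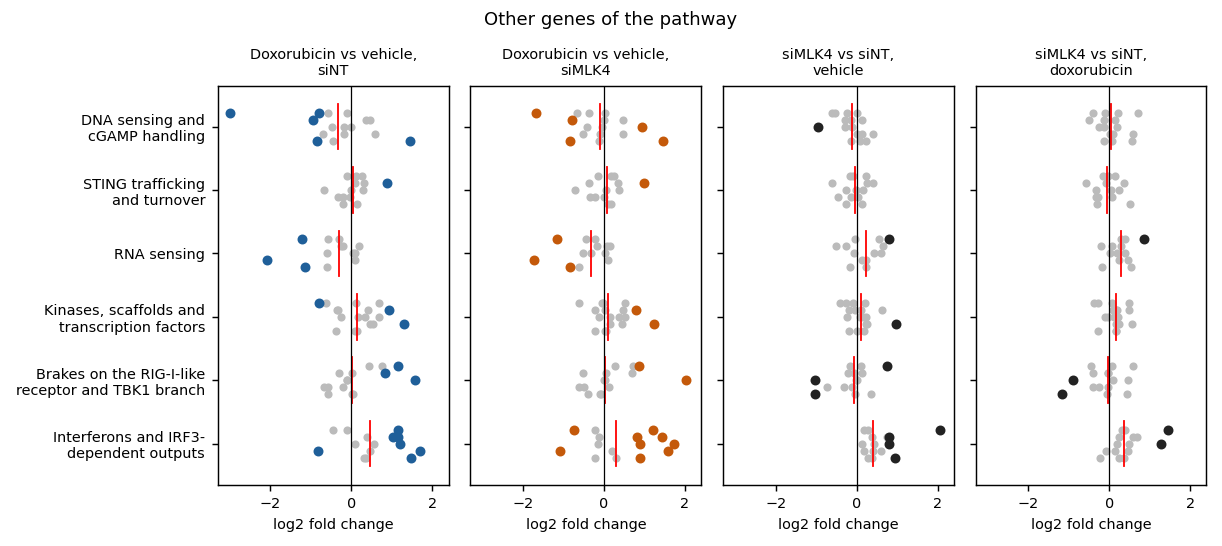
Log2 fold changes of the 91 other genes of the pathway in the 4 comparisons, by list; each point is a gene, colored or black points passed both thresholds, and red lines are list medians. The output genes have medians of 0.46, 0.29, 0.40 and 0.37, and the DNA handling genes reach down to −3.01 in siNT cells.

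Of 14 genes that carry STING1 between compartments or turn it over, only STIM1, a calcium sensor that holds STING1 at the endoplasmic reticulum, was called with doxorubicin, where 22.7% and 23.2% of all genes were called. It rose by 0.89 (SE 0.13, adjusted p = 4.1e-05) in siNT and by 0.99 (SE 0.13, adjusted p = 1.5e-05) in siMLK4 cells. None was called with the knock-down by limma, against 5.65% and 5.58% of all genes, while 4 had an unadjusted p below 0.05 with vehicle and 6 with doxorubicin, where 37.0% and 37.1% of all genes had one.

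Among other sensors of RNA, OAS1, TLR3 and OAS2 fell with doxorubicin. Of 13 such genes, these 3 were called lower and none higher in siNT and in siMLK4 cells, a share near the 22.7% and 23.2% of all genes called, and the medians were −0.30 and −0.31. Each median rested on single libraries: in siNT cells it was −0.50 without vehicle replicate 1 and −0.19 without doxorubicin replicate 1, and in siMLK4 cells −0.20 and −0.46 without vehicle replicate 2 and 3. OAS1 and OAS2 make the oligoadenylates that activate RNase L, and TLR3 senses double-stranded RNA in endosomes. OAS1 was at 383, 465 and 482 normalized reads in siNT cells with vehicle and at 67.4, 42.8 and 102 with doxorubicin (−2.09, SE 0.21, adjusted p = 1.8e-06). In siMLK4 cells it fell by 1.74 (SE 0.21, adjusted p = 8.9e-06). TLR3 fell by 1.21 and 1.17, and OAS2 by 1.15 and 0.85, in siNT and siMLK4 cells. The OAS2 call in siMLK4 cells was lost without siMLK4 doxorubicin replicate 2 (−0.74) and with library totals. With the knock-down TLR3 rose from 269 ± 97.8 to 500 ± 88.9 (SD, n = 3) normalized reads with vehicle (0.81, SE 0.19, adjusted p = 0.006) and from 87.0 ± 17.7 to 193 ± 25.1 with doxorubicin (0.85, SE 0.19, adjusted p = 0.0047). The call with vehicle was lost without siNT vehicle replicate 1 or 2, any of the siMLK4 vehicle libraries or siMLK4 doxorubicin replicate 1 (0.63 to 0.90), and with only the groups compared (adjusted p = 0.047). With doxorubicin it was lost when replicate 1 or 2 of the drug-treated siNT cells, or replicate 1 or 3 of the drug-treated siMLK4 cells, was left out (0.77 to 0.85).

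Among 18 further kinases, scaffolds and transcription factors, 2 were called higher and 1 lower with doxorubicin in siNT cells, and 2 higher and none lower in siMLK4 cells, where 22.7% and 23.2% of all genes were called. IRF1, which activates interferon genes independently of IRF3, rose by 1.3 (SE 0.13, adjusted p = 1.6e-06) and 1.24 (SE 0.13, adjusted p = 2.3e-06). STAT2, part of the complex that interferon receptors activate, rose by 0.92 and 0.79. TRAF2, an adaptor ubiquitin ligase, fell in siNT cells from 644 ± 148 to 342 ± 51.3 (SD, n = 3) normalized reads (−0.81, SE 0.15, adjusted p = 0.00031), and its call was lost when replicate 1 of siNT vehicle (−0.67) or replicate 3 of siNT doxorubicin (−0.70) was left out and with library totals (−0.59). With the knock-down 1 was called, TBKBP1, an adaptor of TBK1, against 5.65% of all genes with vehicle. It was at 57.5, 67.5 and 50.5 normalized reads in siNT and 154, 163 and 145 in siMLK4 vehicle libraries (0.96, SE 0.11, adjusted p = 3.9e-05).

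Of 15 genes that restrain the RIG-I-like receptors and TBK1, 3 were called higher with doxorubicin in siNT and 2 in siMLK4 cells, and none lower, where 22.7% and 23.2% of all genes were called. CYLD, a deubiquitinase that acts on RIG-I, was at 438 ± 55.6 (SD, n = 3) normalized reads in vehicle-treated siNT cells and rose to 1412 ± 333 with the drug (1.56, SE 0.20, adjusted p = 1.5e-05) and in siMLK4 cells from 441 ± 57.2 to 1984 ± 546 (2.02, SE 0.20, adjusted p = 1.7e-06). ATG12, whose conjugate with ATG5 binds RIG-I and MAVS, rose by 1.14 and 0.86. TAX1BP1, a partner of TNFAIP3, rose by 0.83 in siNT cells, and by 0.74 without siNT vehicle replicate 2, where its call was lost. With the knock-down, RNF125, a ubiquitin ligase that marks RIG-I for degradation, was at 129, 116 and 136 normalized reads in siNT and 36.1, 34.9 and 55.1 in siMLK4 vehicle libraries (−1.02, SE 0.12, adjusted p = 5.3e-05), and fell by 1.16 (SE 0.12, adjusted p = 2.4e-05) with doxorubicin. TNFAIP3, the deubiquitinase A20, fell by 1.02 (SE 0.16, adjusted p = 0.00053, and 0.014 with only the groups compared, where its call was lost) with vehicle and by 0.89 (SE 0.16, adjusted p = 0.0014) with doxorubicin. SOCS1, which blocks interferon receptor signaling, rose with vehicle by 0.76 (SE 0.15, adjusted p = 0.0022) from a mean of 14.7 to 46.3 normalized reads, and its call was lost without siNT vehicle replicate 3 (0.59) or siMLK4 vehicle replicate 2 (0.74) or 3 (0.70) and with only the groups compared (adjusted p = 0.026).

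Of 22 interferons, interferon receptors and output genes, 15 were in the table, and IFNB1, IFNL1, IFNL2, IFNL3, IFNE, IL10RB and CXCL11 were not analysed here. With doxorubicin, 6 were called higher and 1 lower in siNT cells, and 7 higher and 2 lower in siMLK4 cells, where 22.7% and 23.2% of all genes were called, with medians of 0.46 and 0.29. With the knock-down, 4 were called higher with vehicle and 2 with doxorubicin, none lower, against 5.65% and 5.58% of all genes, with medians of 0.40 and 0.37. OASL, which enhances RIG-I signaling, was at 43.4, 49.8 and 42.7 normalized reads in siNT cells with vehicle and at 271, 197 and 272 with doxorubicin (1.70, SE 0.14, adjusted p = 3e-07), and rose by 1.57 in siMLK4 cells. IFI6 and IFIT3, interferon-stimulated genes, rose by 1.46 and 1.2 in siNT cells and by 0.89 each in siMLK4 cells. IFI44, another, fell by 0.83 (SE 0.16, adjusted p = 0.00057) in siNT and by 1.10 (SE 0.16, adjusted p = 5.4e-05) in siMLK4 cells, and the call in siNT cells was lost with library totals (−0.61). The output genes thus moved in both directions with the drug.

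IFIT1, an RNA-binding protein strongly induced by interferon, was higher in siMLK4 cells under both treatments. It was at 255, 330 and 281 normalized reads in siNT cells with vehicle and at 1290, 1358 and 1472 in siMLK4 cells (2.07, SE 0.14, adjusted p = 5.7e-07). With doxorubicin it was at 226, 263 and 293 in siNT and 768, 658 and 988 in siMLK4 cells (1.45, SE 0.14, adjusted p = 1.2e-05). No siNT library overlapped with a siMLK4 library. In siMLK4 cells IFIT1 fell with doxorubicin (−0.75, SE 0.14, adjusted p = 0.00046), a call lost without siMLK4 vehicle replicate 3 (−0.70) or siMLK4 doxorubicin replicate 1 (−0.73) or 2 (−0.62) and with library totals (−0.57). IFI6 and IFIT3 also rose with the knock-down with vehicle (0.94 and 0.80). The IFI6 call was lost without siNT vehicle replicate 2 (0.91) or 3 (0.87) or siMLK4 vehicle replicate 3 (0.70), and that of IFIT3 without siNT or siMLK4 vehicle replicate 1 or 2 (0.63 to 0.80). With only the groups compared, both were lost (adjusted p = 0.025 and 0.033).

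CXCL10, a chemokine that IRF3 and interferon induce, was near the floor without the drug. CXCL10 and CMPK2 averaged below 10.668 normalized reads in both vehicle groups, the lowest highest-group mean of any gene in the table. They are in it only through doxorubicin groups, so their rises with the drug, and the calls counted from these, are no independent support. It was at 4.70, 2.08 and 3.37 normalized reads in siNT cells with vehicle and at 13.8, 13.2 and 18.2 with doxorubicin (0.55, SE 0.12, adjusted p = 0.0012). In siMLK4 cells it was at 4.01, 4.98 and 6.49 with vehicle and at 87.3, 72.5 and 109 with doxorubicin (1.72, SE 0.12, adjusted p = 1e-07). The siMLK4 doxorubicin libraries lay far above all others. The responses differed by 1.17 (SE 0.17, adjusted p = 0.0047), a call that was lost in 10 of 19 alternatives, 8 of which left out 1 library, while the value ran from 1.07 to 1.97. Of all genes, 0.276% were called for this difference, and 0% to 0.217% when 1 library was left out. On the log2 scales with an added 1 or 8 and with limma-voom, the rise was larger in both kinds of cells, up to 2.04 in siNT cells, where it was then called, and up to 3.99 in siMLK4 cells. CMPK2, a mitochondrial nucleotide kinase induced by interferon, rose in siMLK4 cells from 8.52 ± 0.823 to 79.7 ± 5.40 (SD, n = 3) normalized reads (1.44, SE 0.15, adjusted p = 2.4e-06) and in siNT cells from 3.23 ± 2.82 to 35.3 ± 5.97 (1.16, SE 0.15, adjusted p = 1.6e-05). Over the alternatives, its rise ran from 1.41 to 3.15 in siMLK4 and from 0.96 to 3.76 in siNT cells. The difference between its responses, 0.28, ran from −0.61 to 0.48, so which rise was larger depended on the alternative.

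The summed level of the immune markers in the table, PTPRC and CD14, was 16.9 normalized reads in siNT cells with vehicle, 45.3 in siNT cells with doxorubicin, 28.6 in siMLK4 cells with vehicle and 54.7 in siMLK4 cells with doxorubicin. CD14 was the most abundant at a mean of 25.0. The summed level of the fibroblast markers was 439, 291, 743 and 426 in the same order, with COL1A1 the most abundant at a mean of 372. The part of these markers in the results was not tested.

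**Figure D5:**
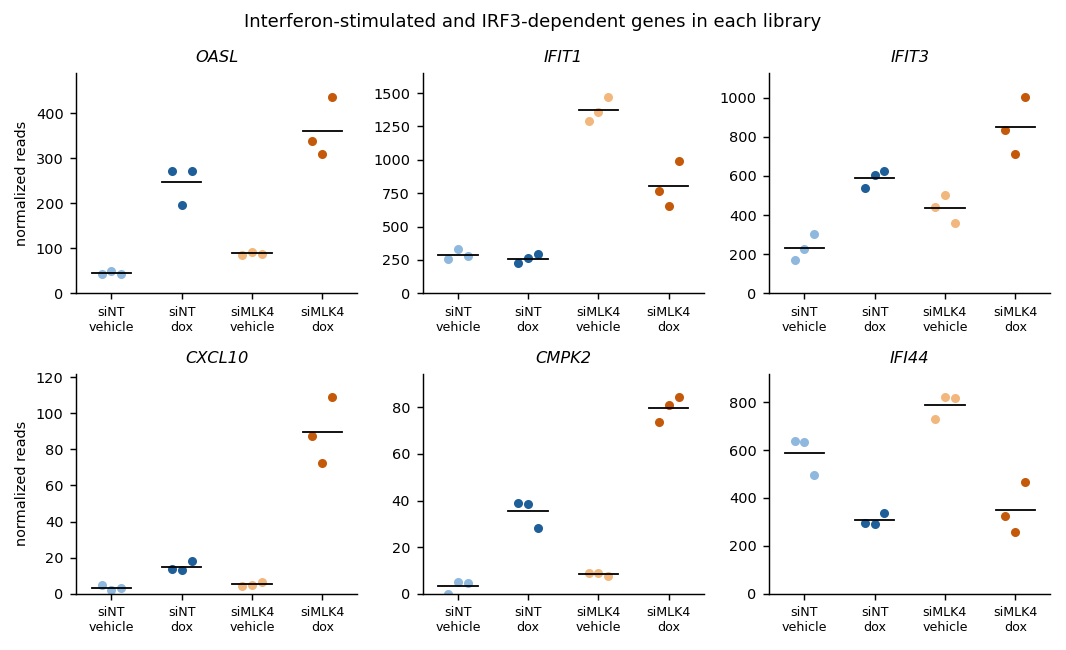
Normalized reads of 6 output genes in each library, 3 per group; points are libraries, lines are group means, and each axis starts at 0. IFIT1 is higher in all siMLK4 libraries, CXCL10 stands out in siMLK4 cells with doxorubicin, and IFI44 is lower with doxorubicin.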

How the data were processed

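The deposited table held variance-stabilized log2 values per Ensembl gene, made by the authors from read counts of 12 libraries with DESeq2 1.26.0. Upstream, the authors trimmed reads with Trimmomatic 0.39 (minimum length 50), aligned them with HISAT2, removed optical duplicates and counted them with HTSeq 0.6.0 as reverse-stranded. The study's methods give the build as GRCh38 and the submitters' processing notes give hg19. The table holds no coordinates, and those printed are from GENCODE release 44 on GRCh38. Inverting the transformation gave whole reads for 100% of values (tolerance 0.05) and size factors of 0.852 to 1.199. In the highest of its 4 groups, each gene of the table averaged 10.668 or more normalized reads. A gene below that in both vehicle groups is in the table only because it was higher with doxorubicin. Among the named genes this holds for the rises of ENPP1, CXCL10, CMPK2 and PTPRC. Levels between genes are RPKM, computed from the recovered reads over merged exons.

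All 12 libraries were fitted as 4 group means with limma 3.58.1 (R 4.3.3) on the deposited values, with a variance trend and Benjamini-Hochberg adjustment. Intervals are 95%. The fit was run on simulated data, where it called 81 of 100 genes changed 2-fold and 97 of 100 changed 3-fold. It called 0 of 16813 unchanged genes. The simulation gave all genes the same spread, few of them a change and the replicates no further differences, unlike these data. It therefore does not measure error rates here. Genes, lists, tests and promoters were chosen with earlier results of these data known. All 9 sensing genes are named, and from each list and comparison up to 3 called genes in each direction whose libraries did not overlap. Alternatives were other scalings (trimmed mean of M values, library totals), log2(normalized reads + 1 or + 8), limma-voom, no variance trend, at least 10 reads in every library, only the groups compared, a replicate block, other thresholds and leaving out each library. The fits with a replicate block on only the groups compared were added after seeing the data.

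Replicate numbers come from the titles. Deviations from the group means of equally numbered libraries correlated at 0.460, 0.105 and 0.205 between treatments in siNT cells and at 0.190, 0.516 and 0.559 between siNT and siMLK4 cells with doxorubicin, so these may be paired, a reading from the values and not from the labels. The correlations were −0.077, 0.176 and 0.337 between treatments in siMLK4 cells and −0.723, 0.325 and −0.523 between siNT and siMLK4 cells with vehicle, which were not all positive. The main fit had no replicate block, so its p-values and intervals ignore any pairing. With the knock-down and doxorubicin, its limma adjusted p-values were 0.058 for STING1, 0.061 for IRF7 and 0.17 for RIGI. With the block on those groups alone they were 0.003, 0.00012 and 0.025. Replicates differed by more than sampling noise (chi-square per degree of freedom 7.01 to 63.7).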

Additional observations from a re-analysis of the deposited data

Results flagged for a closer look

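Among the 9 sensing genes and the 91 other genes of the pathway, the doxorubicin response differed between siMLK4 and siNT cells at a limma adjusted p below 0.05 for 4, where 1.2% of all genes passed, which is why they are listed here. STING1 had a difference of −0.74 (adjusted p = 0.044), which was above 0.05 in 12 of 20 alternatives, with 3 of 3 doxorubicin libraries above the vehicle libraries in siNT cells and 3 of 3 below them in siMLK4 cells. CXCL10 had 1.17 (adjusted p = 0.0047), which was above 0.05 with log2(normalized reads + 1) and with limma-voom, and its means were 15.1 and 89.6 normalized reads with doxorubicin in siNT and siMLK4 cells. LRRC8A had 1.13 (adjusted p = 0.047), which was above 0.05 in 15 of 20 alternatives, and its means were 1597, 1417, 811 and 1636 normalized reads in siNT vehicle, siNT doxorubicin, siMLK4 vehicle and siMLK4 doxorubicin libraries. SLC19A1 had 1.32 (adjusted p = 0.020), which was above 0.05 when siNT doxorubicin replicate 2 or 3, or replicate 1 of siMLK4 doxorubicin, was left out, and it fell in both kinds of cells.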

How the results depend on the processing

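With library totals in place of the size factors, the median of all genes moved to 0.18 and 0.16 with doxorubicin and to 0.11 and 0.09 with the knock-down, and 72.2%, 69.4%, 64.6% and 61.1% of calls were higher, beside 53.4%, 54.4%, 44.4% and 47.6%. Signs turned there for MAVS with the knock-down and vehicle (0.03), TBK1 with doxorubicin in siNT (0.05) and siMLK4 cells (0.02) and between the responses (−0.03), and IRF3 with the knock-down and doxorubicin (0.01). Each of these values was small, and the cause was not tested. Of the 6 calls of sensing genes, that of CGAS in siMLK4 cells was lost without siMLK4 doxorubicin replicate 3. At 0.80 that call was also lost with a log2 fold change over 1 required. No other was lost under any alternative run. Without the fold threshold and with an adjusted p below 0.05, 5, 3, 2 and 1 sensing genes passed in siNT cells with doxorubicin, with the knock-down and vehicle, with the knock-down and doxorubicin, and between the responses. Of the 91 other pathway genes, 51 and 45 passed that rule with doxorubicin, 28 and 27 with the knock-down and 3 between the responses, where 57.3%, 57.9%, 25.8%, 24.8% and 1.2% of all genes passed. With a log2 fold change over 1 required, 14, 11, 3 and 3 passed, against 12.2%, 12.7%, 2.24% and 2.1% of all genes.

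The replicate block in all groups kept the counts of calls of sensing genes. On only the groups compared with vehicle, it left 0 pathway genes and 0 of all 17013 genes called, beside 5 pathway genes and 3.59% of all genes without the block and 10 and 5.65% in the fit of all 12 libraries, and the MAP3K21 value stayed at −2.24 with an adjusted p of 0.034. RIGI, IFIH1 and STING1 then had adjusted p-values of 0.077, 0.11 and 0.15. In that comparison the deviations of equally numbered libraries correlated at −0.723, 0.325 and −0.523. The labels state no pairing, so whether replicate numbers pair libraries there is not known. Between the responses, CXCL10 was the pathway gene called, where 0.276% of all genes were. With log2(normalized reads + 1) or limma-voom 0 were called, where 0.2% and 0.17% of all genes were. The filter of at least 10 reads, which left 13295 genes, also gave 0, where 0.301% of those genes were called. It removed CXCL10 before any test.

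Leaving out 1 library at a time gave 2 to 3 and 3 to 4 sensing genes and 22 to 26 and 19 to 24 pathway genes called with doxorubicin in siNT and siMLK4 cells, where 21.2% to 24.6% and 20.6% to 26.0% of all genes were called, and 7 to 10 and 4 to 5 pathway genes with the knock-down with vehicle and with doxorubicin, where 5.46% to 5.97% and 4.47% to 6.59% were. Between the responses, 0 to 1 pathway genes were called, where 0% to 0.217% of all genes were, beside 0.276% with all 12 libraries. Where a sign turned, the ranges were as follows. Between the responses, they were −0.09 to 0.07 for IFIH1, −0.10 to 0.27 for IRF3, −0.13 to 0.03 for MAVS and −0.13 to 0.11 for TBK1. With the knock-down and vehicle, they were −0.35 to 0.02 for IRF3, −0.07 to 0.18 for IRF7 and −0.24 to 0.00 for TBK1. With the knock-down and doxorubicin, they were −0.31 to 0.01 for IKBKE and −0.23 to 0.05 for IRF3. Depth limits genes with few reads, among them IRF7, ENPP1, CXCL10, CMPK2 and SOCS1.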
